A study of Mus musculus with 55 samples.

Results

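Flavin-containing monooxygenases and sulfotransferases are 2 enzyme families of hepatic drug metabolism. Flavin monooxygenases add oxygen to the nitrogen or sulfur atoms of drugs and dietary amines, and belong to the oxidative phase of detoxification. Cytosolic sulfotransferases carry a sulfate group from the donor PAPS to phenols, steroids, bile acids and other acceptors, which makes them more soluble. PAPS is made from ATP and sulfate by the PAPS synthases. The 8 genes described here were taken by symbol. They are the flavin monooxygenase genes Fmo1, Fmo2 and Fmo5, the sulfotransferase genes Sult1a1, Sult1b1, Sult1d1 and Sult5a1, and Papss2, which encodes the PAPS synthase that predominates in liver, out of 37620 genes in the expression tables.

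The values came from livers of 55 naive male mice of 29 lines of the Collaborative Cross (CC), a panel of recombinant inbred lines bred from the wild-derived founder strains WSB/EiJ, PWK/PhJ and CAST/EiJ and the classical founder strains NZO/HlLtJ, A/J, NOD/ShiLtJ, C57BL/6J and 129S1/SvImJ. All mice were raised in 1 facility without treatment, were between 8 and 11.9 weeks old and weighed between 12.8 and 38 g. Each line is 1 group: 8 lines had 1 mouse, 16 had 2 mice and 5 had 3 mice. Line mates were separate animals, and the lines were not all fully inbred. The comparison of interest was how much the expression of each gene, and the share of each of its transcript isoforms, differed between lines.

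The estimated fragments per liver ranged from 20.5 to 34.0 M, where M stands for mega, with a median of 27.7 M. The hepatocyte markers were high in every liver (Alb between 8656 and 50167 FPKM), and the adipocyte markers Adipoq, Lep and Plin1 were at a median of 0 FPKM. In 42 of the 47 mice with a line mate, the closest mouse by Spearman correlation over 5949 genes was a line mate. Of the 5 exceptions, 1 was replicate 2 of IL-2146, which was closest to the IL-1141 mouse (0.960, beside 0.956 with its line mate). The other 4 were mice of the lines IL-1052 and IL-2750. Replicate 1 of IL-1052 was closest to replicate 1 of IL-2750, and replicate 2 of IL-2750 was closest to replicate 2 of IL-1052. Replicate 1 of IL-1052 and replicate 2 of IL-2750 were thus each closer to the other line than to a mouse of their own, as they would be if their labels had been exchanged. The labels were kept, the counts of calls are also given without both lines, and calls in these lines depend on which labels are right. Replicate 3 of IL-785 held the female transcript Xist at 39.5 FPKM, together with the Y-linked Ddx3y at 12.6 FPKM, where Xist was at most 0.12 FPKM in the other 54 mice. Calls for IL-785 are therefore also given without it, while the line means of IL-785 include it.

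On the FPKM scale (fragments scaled to transcript length and to mapped fragments of the library, which allows levels of different genes to be compared per length), Fmo5 was the most abundant of the 8 transcripts, with a median of 172 FPKM over the 55 mice. Sult1a1 followed with a median of 122 FPKM and Fmo1 with 81.5 FPKM. Sult1d1 (43.9), Papss2 (39.3), Sult5a1 (24.7) and Sult1b1 (18.8) were intermediate, and Fmo2 was the lowest at 1.91 FPKM. The lowest Fmo2 mouse still had 62 estimated fragments. All 8 genes differed among the 21 lines with at least 2 mice (edgeR quasi-likelihood F test on estimated counts, adjusted p between 5.49e-12 for Sult5a1 and 0.0203 for Papss2). Differences among lines were the rule in these livers: 88.5% of the 15285 genes tested passed the same test, so the count of 8 of 8 does not set the group apart. In bulk liver, fewer cells of a type and less RNA per cell cannot be told apart.

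**Figure D1:**
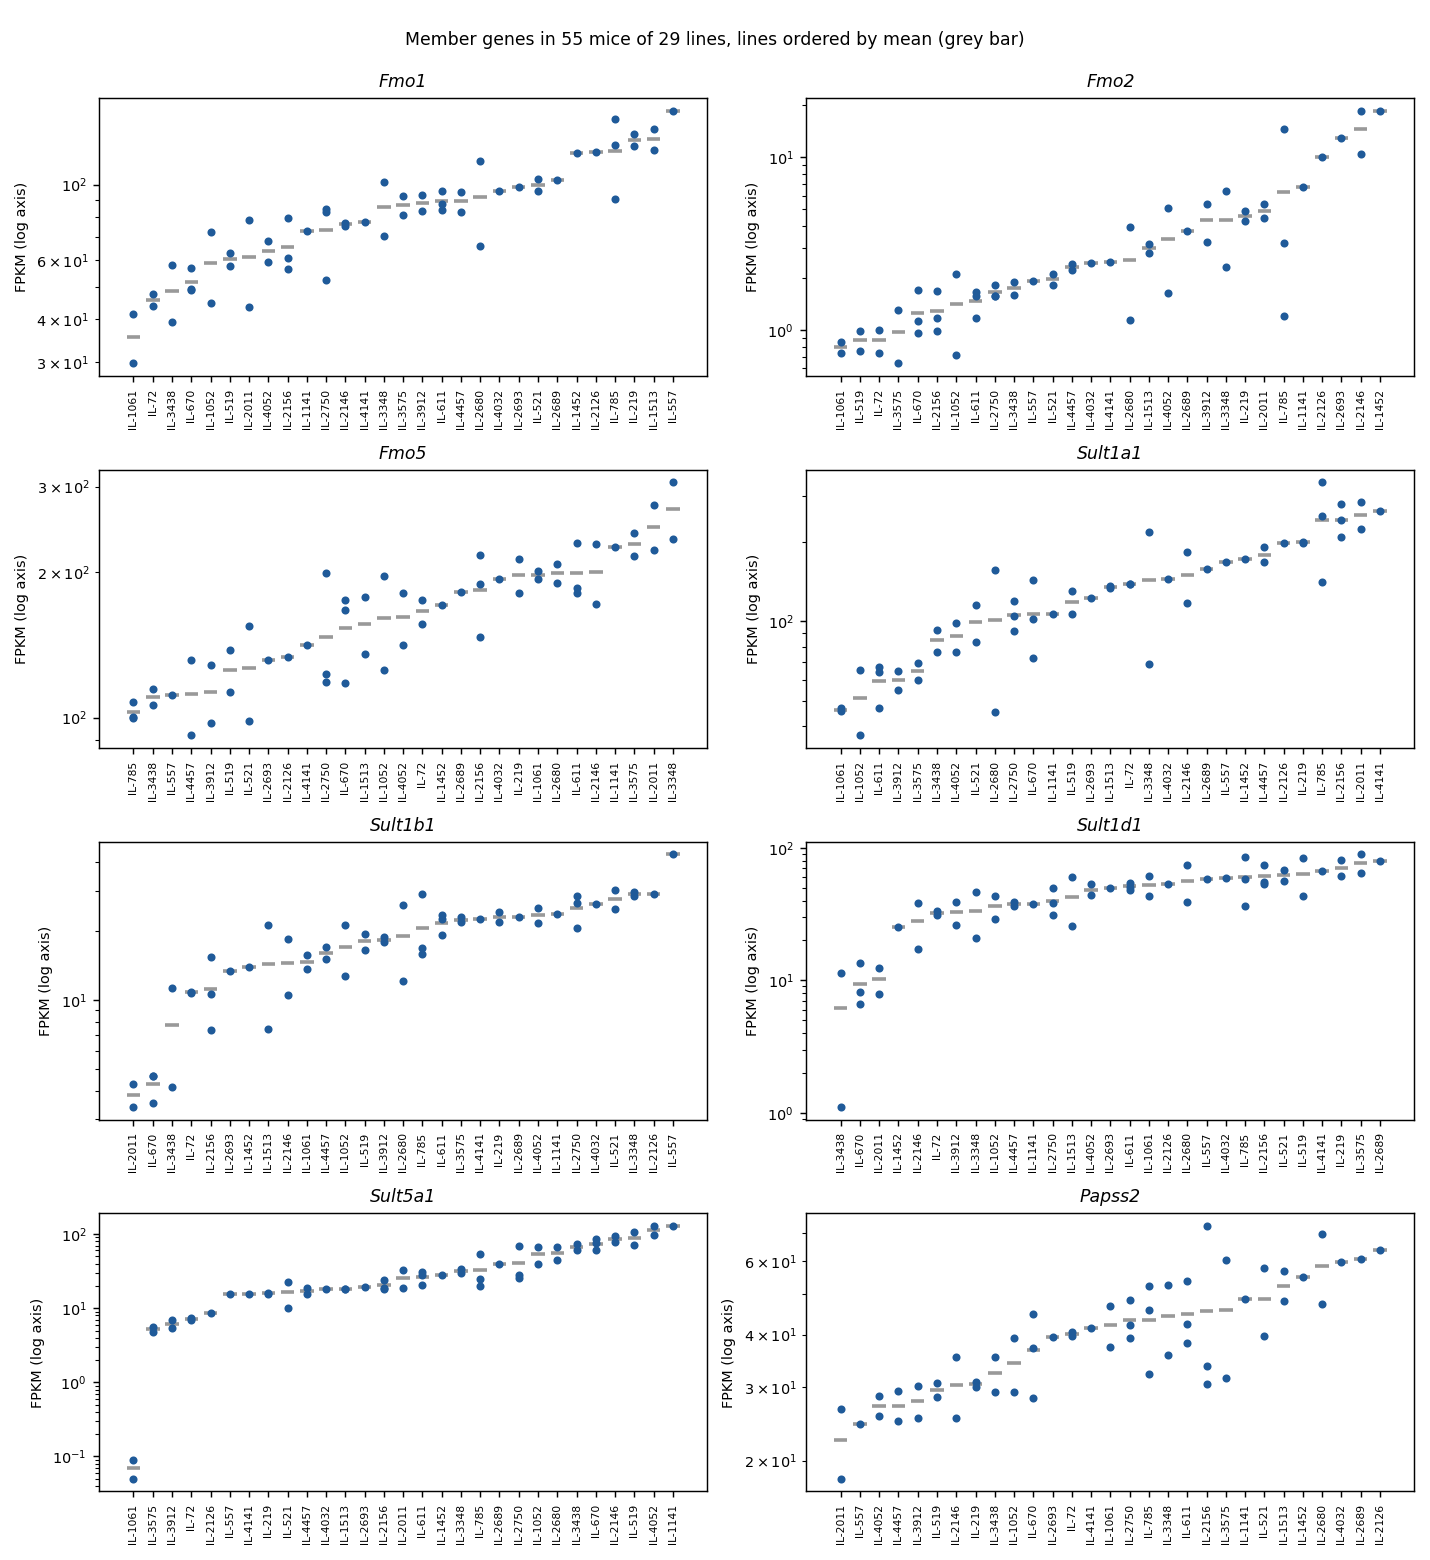
FPKM of the 8 genes (log axes) in each of 55 mice, with lines ordered by their mean within each panel. Points are mice and grey bars are line means. Sult5a1 in IL-1061 lies apart from all other lines, while the Papss2 and Fmo5 lines form a gradual series.

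The genes differed in how far the lines spread. The highest line mean was 2.63 times the lowest for Fmo5, 2.84 times for Papss2, 4.65 times for Fmo1 and 5.69 times for Sult1a1. It was 11.2 times for Sult1b1, 12.7 times for Sult1d1 and 23.5 times for Fmo2. Over the genes tested the median of this ratio was 3.19, and over the 8 members it was 8.47. When the lines were put in order of their log2(FPKM + 1) means, most neighbours did not differ beyond the spread of line mates. None of the 28 steps between neighbouring lines exceeded the pooled SD within lines for Fmo2, Fmo5, Sult1a1 and Papss2. The number was 1 for Fmo1, 2 for Sult1d1 and Sult5a1 and 3 for Sult1b1. With this many lines in order, steps between neighbours are small even where lines lie far apart. These counts therefore describe how gradual each series was and cannot tell whether lines differed.

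The intraclass correlation gives the share of the variance in normal scores that lay between lines. It was 0.896 for Sult5a1, which is higher than in 99.4% of 5949 genes. Fmo1 (0.727), Sult1b1 (0.674) and Sult1a1 (0.657) were above the median of all these genes, 0.592. Fmo5 (0.599) was close to it. Fmo2 (0.573), Sult1d1 (0.549) and Papss2 (0.453) were below it. These values are a description, with no test.

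Fmo1 encodes a monooxygenase of broad substrate range that is abundant in adult mouse liver. The gene lies on chromosome 1 (164759692 to 164796679, minus strand, build NCBIM37, which is mm9), between Fmo4 and Fmo2. Line means ran from 35.5 ± 8.32 FPKM (SD, n = 2) in IL-1061 to 165 FPKM in IL-557, which had 1 mouse. The IL-1061 mice were at 29.7 and 41.4 FPKM and the IL-72 mice at 43.8 and 47.5 FPKM. The mice of IL-1513 were at 126 and 146 FPKM and those of IL-219 at 130 and 141 FPKM. The mice of IL-1513 and IL-219 did not overlap with those of IL-1061 and IL-72. Fmo1 counts were not whole numbers in any of the 55 mice, so some of its fragments were shared with other genes and their assignment is an estimate.

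Each line was then set against the mean of the other 20 lines with at least 2 mice, on the log2 scale, with 1 adjustment over all genes and lines (edgeR). Fmo1 was lower in IL-1061 (-1.02, SE 0.201, adjusted p = 0.000432), IL-72 (-0.85), IL-3438 (-0.68) and IL-670 (-0.48). It was higher in IL-785 (0.88, SE 0.136, adjusted p = 2.08e-05), IL-1513 (0.84) and IL-219 (0.80). Across all genes and lines, 11% of such differences were called higher and 7.15% lower. The IL-3438 and IL-670 calls were lost when 1 mouse of the line was left out, and without replicate 3 of IL-785, which was the highest of its line at 157 FPKM, the IL-785 difference was still called.

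Fmo2 encodes an enzyme best known from lung, and its gene neighbours Fmo1 on chromosome 1 (164804448 to 164828857, minus strand). In most livers it was low: 49 of 55 mice were at 6.70 FPKM or less. The other 6 mice were at 10 FPKM or more. They were the single mice of IL-1452 (18.7 FPKM), IL-2693 (13.0 FPKM) and IL-2126 (10.0 FPKM), both mice of IL-2146 (10.4 and 18.7 FPKM) and replicate 3 of IL-785 (14.6 FPKM). The other 2 IL-785 mice were at 1.21 and 3.18 FPKM.

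Against the mean of the other lines, Fmo2 was higher in IL-2146 by 2.97 on the log2 scale (SE 0.352, adjusted p = 2.71e-07), and this call held when any 1 mouse was left out. It was also called higher in IL-785 (1.65, adjusted p = 0.000794), but without replicate 3 the difference was 0.0031 and was not called. The third call was IL-2011 (1.32, adjusted p = 0.0305), where the mice were at 4.44 and 5.35 FPKM, and it was lost when either of these mice was left out. No line was called lower for Fmo2.

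Elovl3, a male-predominant elongase of long fatty acids, had a median of 102 FPKM over the 55 mice. It was at 7.77 FPKM in IL-1452, 8.70 FPKM in IL-2126, 15.6 FPKM in replicate 3 of IL-785, 30.2 and 20.3 FPKM in IL-2146 and 94.6 FPKM in IL-2693, all under that median. These were the mice with Fmo2 at 10 FPKM or more. Low Elovl3 was not particular to them, since 2 IL-670 mice (13.3 and 14.1 FPKM), both IL-2011 mice (12.4 and 13.2 FPKM) and replicate 3 of IL-2156 (12.9 FPKM) had it too. Hsd3b5, another male-predominant gene, went the other way in IL-2146, which had its highest line mean (246 FPKM). Elovl3 and Hsd3b5 were picked after their values were seen, so sums over whole lists are given as well.

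The summed level of 6 female-predominant liver genes (Sult2a1, Sult3a1, Cyp2b9, Cyp2b13, Cyp3a41a and A1bg) had a median of 2.59 FPKM over the 55 mice. It was 344 FPKM in replicate 3 of IL-785, 285 FPKM in IL-2126, 110 FPKM in IL-1452, 41.4 and 57.1 FPKM in IL-2146 and 37.5 FPKM in IL-2693. All 6 mice with Fmo2 at 10 FPKM or more were thus above the median, and the other IL-785 mice were at 0.81 and 14.6 FPKM. High sums were not particular to them. The highest, 1676 FPKM, was in replicate 1 of IL-2680, with Fmo2 at 3.97 FPKM. It was 718 FPKM in replicate 1 of IL-3575 and 384 and 223 FPKM in IL-219, all with Fmo2 under 10 FPKM. Sums of FPKM are carried by the most abundant genes, such as Cyp3a41a (up to 1549 FPKM) and, in the male-predominant list, Mup20 (median 1163 FPKM). The sum of 6 male-predominant genes, with a median of 2747 FPKM, was between 854 FPKM in IL-1452 and 2673 FPKM in IL-2693 in the same 6 mice. The part of sex-biased expression in the Fmo2 differences was not tested.

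**Figure D2:**
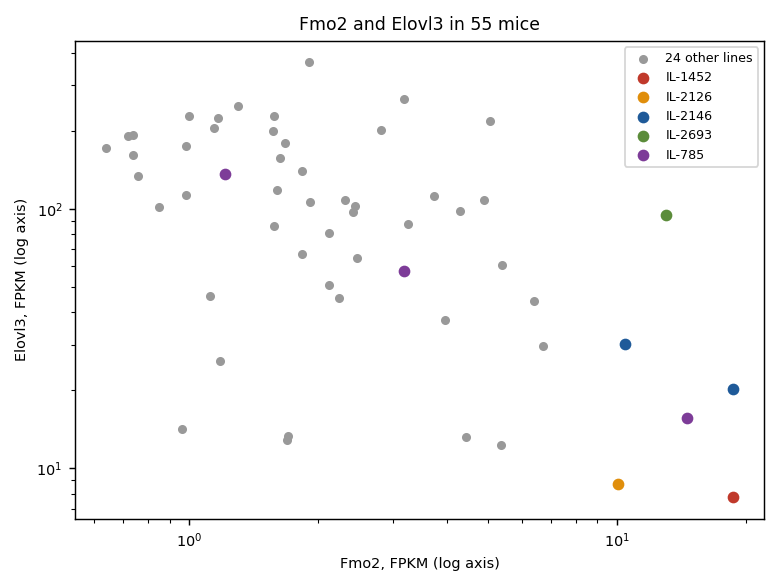
Fmo2 against Elovl3 in FPKM (log axes) in 55 mice, with 5 lines in colour and 24 in grey, each point 1 mouse. The 6 mice with the highest Fmo2 lie at the right, with Elovl3 between 7.77 and 94.6 FPKM.

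Fmo5 encodes a monooxygenase that differs from the other family members in acting on ketones. Its gene is on chromosome 3 (97432727 to 97459205, plus strand), away from the chromosome 1 cluster. Its line means ran from 103 ± 4.25 FPKM (n = 3) in IL-785 to 270 ± 51.0 FPKM (n = 2) in IL-3348. The mice of IL-785 were at 99.9, 100.3 and 107 FPKM and those of IL-3348 at 234 and 306 FPKM. Called differences were small, with IL-3348 (0.68) and IL-2011 (0.58) higher and IL-3438 (-0.66) and IL-3912 (-0.63) lower. None of these 4 calls held under every omission of 1 mouse. IL-785 had the lowest mean FPKM. On estimated counts, which are not divided by transcript length, it differed by -0.23 (SE 0.153, adjusted p = 0.336) and was not called. This difference stayed between -0.26 and -0.20 when any 1 mouse was left out.

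Sult5a1 showed the widest range of the 8 genes. It encodes a sulfotransferase found in mouse whose substrates are poorly known, on chromosome 8 (125666747 to 125682215, minus strand). In IL-1061 it was all but missing: the 2 mice were at 0.05 and 0.09 FPKM, from 1 and 2 fragments. The next line, IL-3575, was at 4.82 and 5.66 FPKM, followed by IL-3912 (5.38 and 7.02 FPKM) and IL-72 (6.99 and 7.32 FPKM). At the top were the single mouse of IL-1141 (127 FPKM), IL-4052 (96.4 and 128 FPKM), IL-519 (70.1 and 107 FPKM) and IL-2146 (78.6 and 94.3 FPKM). The median of the other line means was 374 times the IL-1061 mean, with a 95% Poisson interval of 128 to 1813 from the 3 fragments of IL-1061, which covers counting error only.

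Of the 21 lines compared, 9 were called higher and 4 lower than the mean of the others for Sult5a1. The largest increases were IL-4052 (2.57, SE 0.222, adjusted p = 5.67e-10), IL-519 (2.35), IL-2146 (2.16), IL-670 (1.96) and IL-3438 (1.71). IL-1052 (1.37), IL-2680 (1.34), IL-2750 (1.09) and IL-785 (0.70) were also higher, and the IL-785 call held without its replicate 3. IL-3575 (-2.22), IL-3912 (-1.99) and IL-72 (-1.72) were lower, as was IL-1061, whose fitted value of -8.56 depends on how near-0 counts are handled. That near-0 line is part of the mean that each other line was set against, which lowers that mean. In IL-1052 the mice were at 39.2 and 67.01 FPKM and in IL-2750 at 25.4, 68.7 and 27.6 FPKM, and without replicate 2 the IL-2750 difference fell to 0.54 and was not called. With the labels of replicate 1 of IL-1052 and replicate 2 of IL-2750 exchanged, the same values would read 67.01 and 68.7 FPKM in IL-1052 and 25.4, 27.6 and 39.2 FPKM in IL-2750. The IL-785 call was lost without replicate 1 and the IL-2680 call without replicate 2, and 10 of the 13 calls held under every alternative and every omission of 1 mouse.

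Sult1b1, which encodes a sulfotransferase of thyroid hormones and phenols, and Sult1d1, which acts on catecholamines and other amines in mouse, are neighbours on chromosome 5. Sult1b1 spans 87942364 to 87967220 and Sult1d1 87983670 to 87998052, both on the minus strand, and Sult1e1, the estrogen sulfotransferase, follows at 88004993 to 88020636. The sequences around the start sites of Sult1b1 and Sult1d1 are shown because both genes were low in the same 3 lines, and that of Sult5a1 because it had the widest range. They are the RefSeq windows of 300 bases (250 before and 50 after the start, GRCm38.p6, C57BL/6J), and 7 of the 8 genes had a window in the table. Capitals mark matches, on either strand, to TATAAA or to the HNF4-type motif CAAAGTCCA.
Sult1b1, upstream start (chr5:87538146-87538445, minus strand): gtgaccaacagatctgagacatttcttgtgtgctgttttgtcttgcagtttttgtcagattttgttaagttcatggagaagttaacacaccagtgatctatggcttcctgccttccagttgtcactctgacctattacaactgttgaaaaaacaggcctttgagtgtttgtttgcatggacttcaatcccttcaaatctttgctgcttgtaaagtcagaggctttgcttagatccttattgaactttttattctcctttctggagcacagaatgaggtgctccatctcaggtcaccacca
Sult1b1, downstream start (chr5:87536173-87536472, minus strand): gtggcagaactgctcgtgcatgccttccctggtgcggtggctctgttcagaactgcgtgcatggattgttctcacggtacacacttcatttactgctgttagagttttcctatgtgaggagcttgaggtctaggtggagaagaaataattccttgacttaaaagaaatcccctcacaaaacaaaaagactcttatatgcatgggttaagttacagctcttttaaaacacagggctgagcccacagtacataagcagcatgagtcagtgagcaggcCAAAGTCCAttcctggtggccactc
Sult1d1 (chr5:87568957-87569256, minus strand): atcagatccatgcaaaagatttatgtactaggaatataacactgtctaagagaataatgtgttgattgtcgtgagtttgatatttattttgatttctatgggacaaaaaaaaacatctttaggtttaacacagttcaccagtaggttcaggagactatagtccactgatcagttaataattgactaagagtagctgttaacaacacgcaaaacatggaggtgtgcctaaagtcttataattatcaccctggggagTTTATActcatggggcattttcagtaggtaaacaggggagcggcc
Sult5a1 (chr8:123158231-123158530, minus strand): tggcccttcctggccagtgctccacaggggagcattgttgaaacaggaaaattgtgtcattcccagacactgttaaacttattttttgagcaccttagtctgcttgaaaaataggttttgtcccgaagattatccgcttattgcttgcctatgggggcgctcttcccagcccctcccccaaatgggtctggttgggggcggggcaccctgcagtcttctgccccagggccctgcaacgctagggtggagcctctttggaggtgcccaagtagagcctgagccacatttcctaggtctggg

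The downstream Sult1b1 window held CAAAGTCCA from 25 to 33 bases after the start, a motif found in 0.475% of the 32851 windows in the table. The Sult1d1 window held TATAAA on the opposite strand, from 5 to 10 bases after the start, which 13.6% of windows held. CCAAT, TTGCNNAA, TTCNNNGAA and the HNF1 motif, which 37.4%, 10.8%, 8.30% and 0.00913% of windows held, had no match in the 4 windows shown. These matches are a description of the reference letters.

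Sult1b1 and Sult1d1 were both low in IL-2011, IL-670 and IL-3438. For Sult1d1 the mice were at 7.87 and 12.5 FPKM in IL-2011, at 6.65, 8.15 and 13.6 FPKM in IL-670 and at 1.11 and 11.3 FPKM in IL-3438. All 7 were below the other 48 mice, which had at least 17.2 FPKM. For Sult1b1 the mice were at 3.40 and 4.30 FPKM in IL-2011, at 3.53, 4.63 and 4.64 FPKM in IL-670 and at 4.15 and 11.3 FPKM in IL-3438. Of these 7 mice, 6 were below the other 48, which had at least 7.39 FPKM, and the second IL-3438 mouse lay within their range.

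Both genes were called lower in all 3 lines. Sult1b1 differed by -2.36 (SE 0.393, adjusted p = 5.50e-05) in IL-2011, by -2.13 (SE 0.314, adjusted p = 9.92e-06) in IL-670 and by -1.17 (adjusted p = 0.0173) in IL-3438. Sult1d1 differed by -1.96 (adjusted p = 0.00574) in IL-2011, by -2.01 (SE 0.414, adjusted p = 0.000706) in IL-670 and by -2.84 (SE 0.543, adjusted p = 0.000315) in IL-3438. The Sult1b1 call in IL-3438 was lost without replicate 1, when the difference was -0.53, and the Sult1d1 call in IL-2011 was lost without replicate 1. Sult1e1, the third gene of the cluster, was at most 0.09 FPKM (3 fragments) in the 7 mice, but its median over all 55 mice was only 0.19 FPKM, and some of the other mice were also at 0.

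Higher values were less clear for this pair. Sult1b1 was called higher in IL-2750 (0.86) and IL-3348 (0.81), and Sult1d1 in IL-519 (1.05, adjusted p = 0.0436), but none of these calls held under every omission of 1 mouse, and the IL-2750 mice (20.6, 26.4 and 28.3 FPKM) include the doubted replicate 2. The highest Sult1b1 value, 43.3 FPKM, was the single mouse of IL-557. Over the 29 line means the Spearman correlation of Sult1b1 and Sult1d1 was 0.52, and 0.47 without the 2 lines farthest from the median of Sult1b1. The 28 pairs of members ranged from -0.29 to 0.53, and the highest was Fmo1 with Fmo2 (0.53). Lines share the same 8 founder strains, so these correlations are a description.

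**Figure D3:**
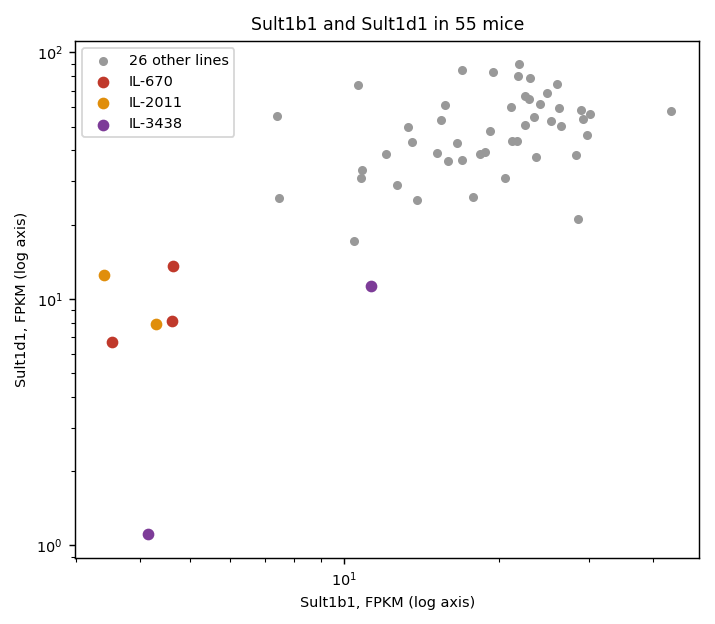
Sult1b1 against Sult1d1 in FPKM (log axes) in 55 mice, with IL-670, IL-2011 and IL-3438 in colour and the 26 other lines in grey. The 7 coloured points lie below all grey points for Sult1d1, and 6 of them lie to the left of all grey points.

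Sult1a1 encodes the main phenol sulfotransferase, on chromosome 7 (133816379 to 133819946, minus strand). Line means ran from 46.1 ± 0.820 FPKM (n = 2) in IL-1061 to 263 FPKM in IL-4141, which had 1 mouse. Called higher were IL-785 (1.23), IL-2011 (1.2) and IL-2156 (1.15, SE 0.237, adjusted p = 0.000742). The IL-2156 mice were at 208, 242 and 279 FPKM, above both IL-1061 mice at 45.6 and 46.7 FPKM. In IL-785 the mice were at 141, 251 and 337 FPKM, and the call held without replicate 3, while the IL-2011 call was lost without replicate 1. Called lower were IL-1061 (-1.23), IL-1052 (-1.07), IL-3912 (-1.05) and IL-611 (-0.92), of which each was lost when 1 mouse of its line was left out. An omission leaves 1 mouse in a line of 2, where a call can be lost while the difference hardly changes. Over all omissions the difference was -1.27 to -1.19 in IL-1061, -1.15 to -0.95 in IL-3912 and -1.03 to -0.79 in IL-611. It was -1.78 to -0.59 in IL-1052, whose mice (37.0 and 65.1 FPKM) include the doubted replicate 1. IL-2680 (45.4 and 156 FPKM) and IL-3348 (69.2 and 218 FPKM) had line mates more than 3 times apart. Of the 1507 exonic bases of Sult1a1, 61 lie within exons of Ccdc101 on the opposite strand, and the counting did not use strand.

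Papss2, on chromosome 19 (32694495 to 32741677, plus strand), supplies the sulfate donor for all 4 sulfotransferases. It had the lowest intraclass correlation of the 8 genes and the highest adjusted p among lines. Line means ran from 22.4 ± 6.03 FPKM (n = 2) in IL-2011 to 63.6 FPKM in IL-2126, which had 1 mouse. The IL-2011 mice were at 18.1 and 26.6 FPKM, and the line was the only one called (-0.81, SE 0.258, adjusted p = 0.0275). Both this call and the F test among lines (adjusted p = 0.0516) were lost without replicate 1 of IL-2011. Line mates could be as far apart as the lines, as in IL-2156 at 30.5, 33.6 and 72.7 FPKM.

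Over the 8 genes, 23 of 168 combinations of gene and line (13.7%) were called higher and 21 (12.5%) lower, beside 11% and 7.15% over all genes. Sult5a1 accounted for 13 of the 44, and the other 7 genes had 14 higher (9.52%) and 17 lower (11.6%) among 147. The calls fell in 19 of the 21 lines. IL-2011 had the most, with Fmo2, Fmo5 and Sult1a1 higher and Papss2, Sult1b1 and Sult1d1 lower, but of these 6 calls only that of Sult1b1 held when either mouse of the line was left out. IL-3438 had 5, with Sult5a1 higher and Fmo1, Fmo5, Sult1b1 and Sult1d1 lower. IL-670 shared the direction of IL-3438 for Sult5a1, Fmo1, Sult1b1 and Sult1d1. IL-1061 had Fmo1, Sult1a1 and Sult5a1 lower. Without IL-1052 and IL-2750, 24 of 152 combinations were higher and 23 lower, beside 37061 and 25086 of 289731 over all genes. With limma on log2(FPKM + 1), 22 of 168 were higher and 23 lower, beside 22165 and 22482 of 236922 over all genes. Over all genes, the share of calls that were higher moved from 60.7% with edgeR to 49.6% with limma.

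**Figure D4:**
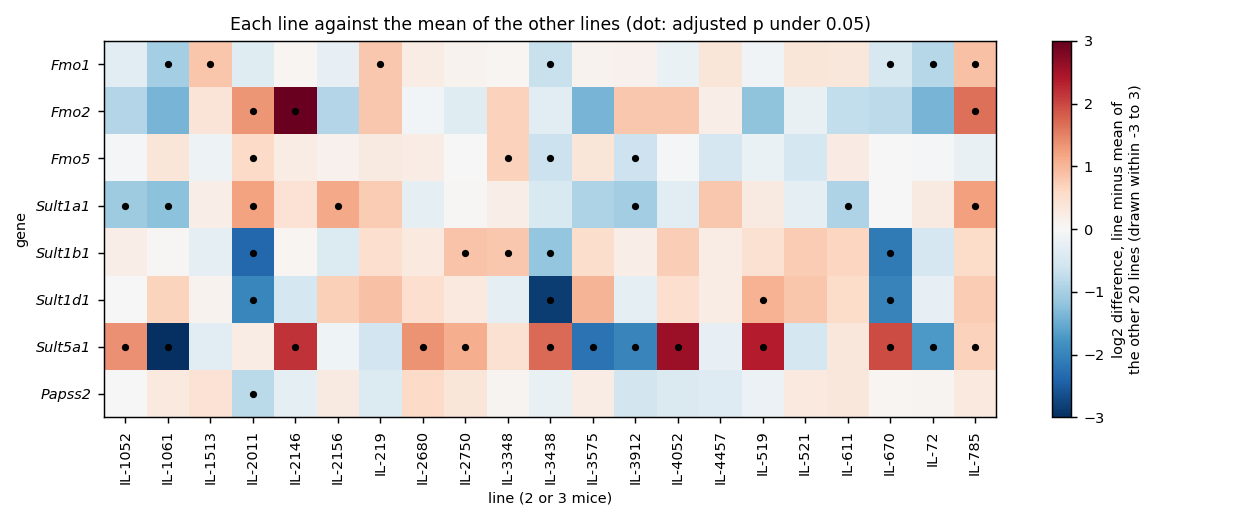
Log2 difference of each of 21 lines from the mean of the other 20 (colour, drawn within -3 to 3) for the 8 genes, with a dot where the adjusted p was under 0.05. Sult5a1 has 13 dots. IL-2011, IL-670 and IL-3438 share blue cells for Sult1b1 and Sult1d1, of which Sult1b1 in IL-3438 (-1.17) is the palest.

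The share of a gene's transcripts given by each isoform (IsoPct, in percent) was examined for the 7 genes with more than 1 annotated isoform, using for each gene the isoform with the most distinct levels. The share differed among lines for 6 of 7 genes (limma F test on normal scores), beside 32.8% of all 6650 isoform ratios tested. Papss2 has a single annotated isoform. When every isoform with enough levels was tested, 14 of 18 isoforms of these genes passed, beside 27.5% of all 21415 isoforms. The shares within a gene add up to a fixed total, so the 18 are not separate results. With 1 isoform a gene and at least 100 fragments in every mouse, 4 of 4 member ratios passed, beside 2004 of 4587 over all genes.

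The 3 main isoforms of Fmo5 have the same coding part and differ in their first exons and in where they end. ENSMUST00000029729 (end at 97456477) made up 49.0% ± 14.3 on average over the 29 line means (SD), ENSMUST00000107049 (end at 97456527) 28.3% ± 6.95, and ENSMUST00000107050, which runs on to 97459205, 22.1% ± 12.5. In IL-557 none of the 13206 fragments of Fmo5 was assigned to ENSMUST00000029729, and ENSMUST00000107050 made up 74.9%. Nearly all bases of ENSMUST00000029729 (2453 bases) also lie in the other 2 models, so few fragments can be assigned to it alone. The 0 is therefore an estimate of the assignment with no upper limit given. ENSMUST00000107050 (5197 bases) has a long 3′ part that the other 2 models lack. In IL-785 the 3 mice had ENSMUST00000029729 at 11.3%, 10.9% and 8.19% and ENSMUST00000107050 at 52.3%, 57.8% and 49.3%. In IL-2126, with 1 mouse, ENSMUST00000107049 led with 55.0%. At the other end, the IL-611 mice had ENSMUST00000029729 at 66.1%, 63.3% and 64.8%. Line mates differed little beside this (SD within lines 4.30 percentage points), and all 3 IL-785 mice lay below every mouse of IL-611 (adjusted p = 0.00130 among lines). FPKM divides by an effective length that follows the isoform mix, so the FPKM of total Fmo5 in these lines is not independent of the shares. The estimated counts that were tested are not divided by length, so they are not independent of the shares either. The IL-557 mouse had 13206 fragments of Fmo5, beside a median of 12779, but 111 FPKM, beside a median of 172 FPKM.

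**Figure D5:**
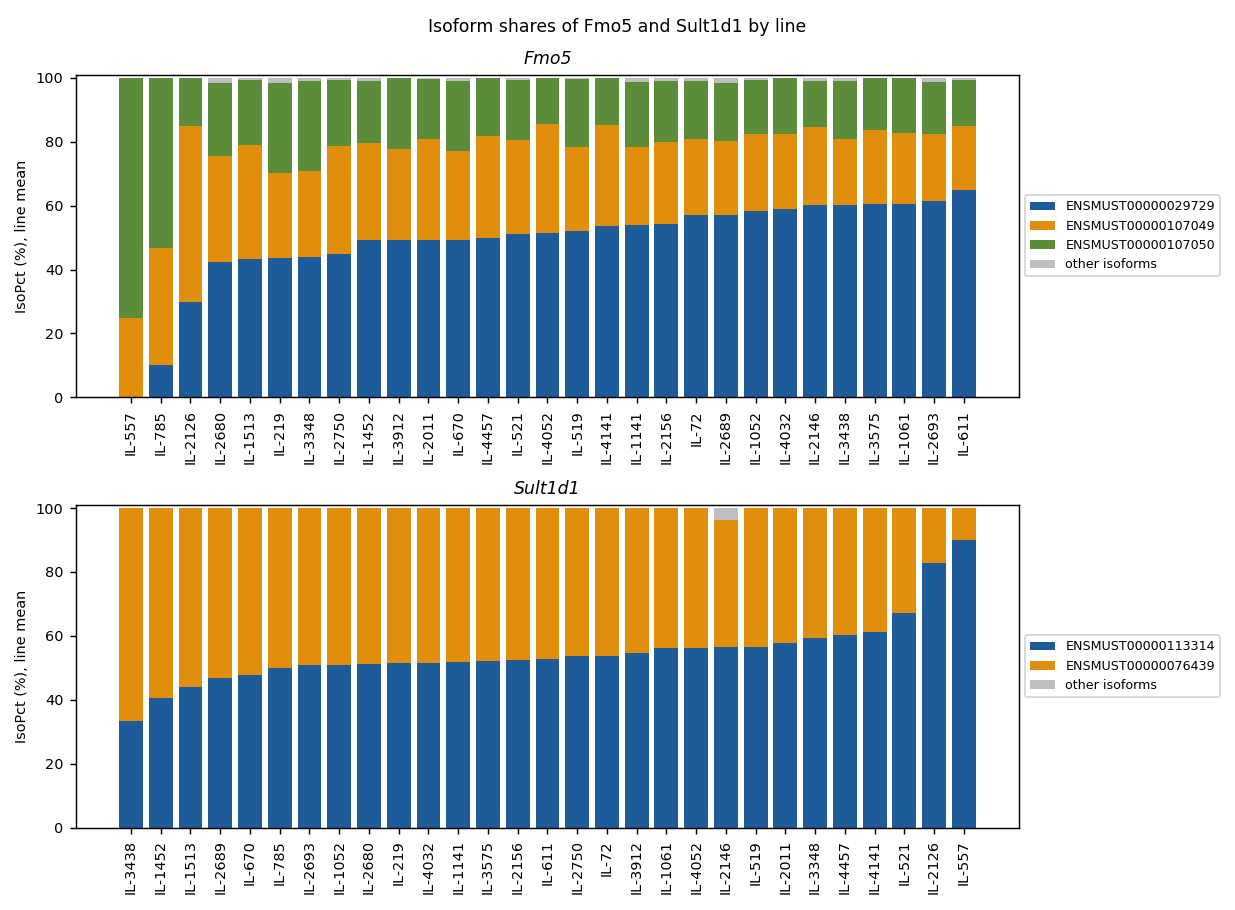
Mean IsoPct by line for the isoforms of Fmo5 (top) and Sult1d1 (bottom), as stacked bars from 0 to 100%, with lines ordered by the share of the isoform drawn at the base. IL-557, IL-785 and IL-2126 stand out for Fmo5, and IL-557 and IL-2126 for Sult1d1.

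Sult1d1 was the gene whose isoform ratio did not pass (adjusted p = 0.477). ENSMUST00000113314 averaged 54.9% ± 10.9 and ENSMUST00000076439 44.9% ± 10.9 over line means, with an SD within lines of 12.6 points for the former. The highest shares of ENSMUST00000113314 were in 2 lines with 1 mouse, which the test leaves out: 90.1% in IL-557 and 82.9% in IL-2126. The lowest was IL-3438 with 23.4% and 43.4%, and the first of these mice had only 41 fragments of Sult1d1. The models differ in their 3′ ends and by a gap of 2 bases at the end of the coding part of ENSMUST00000113314. The reference around this gap is shown because the coding parts part ways there, with the 2 bases that ENSMUST00000076439 skips in capitals.
Sult1d1 (NCBIM37, chr5:87984949-87984978, minus strand): ttagatcagagatcTAgggagagttggttt

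For Sult1b1, ENSMUST00000120150 made up 69.0% ± 7.01 and ENSMUST00000031199, which starts further upstream and has the same coding part, 29.2% ± 6.78 (SD over 29 line means). ENSMUST00000120150 was highest in IL-670, at 89.4%, 84.9% and 90.8%, and also stood at 89.5% and 79.6% in IL-2011, but only between 74.8 and 147 estimated fragments of this isoform stood behind each of these shares. In IL-2146 it was at 46.2% and 66.1%. The ratio differed among lines (adjusted p = 0.00511).

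Fmo1 was made up almost wholly of ENSMUST00000046049, at 93.9% ± 5.85. The exceptions were IL-2126, where it was 69.2% and the short noncoding model ENSMUST00000136120 reached 17.8%, and IL-72, where it was 80.5% and 88.6% and ENSMUST00000111518 reached 16.6% and 9.31%. For Fmo2, ENSMUST00000045902 averaged 85.0% ± 8.01, from 68.6% and 70.3% in IL-219 to 100% and 97.4% in IL-2011. ENSMUST00000111510 (7.30% ± 5.07), which has the same coding part, and ENSMUST00000143123 (5.52% ± 5.88) made up most of the rest. The ratios differed among lines, with adjusted p of 0.00147 for Fmo1 and 0.00497 for Fmo2.

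Sult1a1 was 96.0% ± 1.69 ENSMUST00000106373, from 93.1% in IL-2689 to 98.9% and 99.1% in the mice of IL-3575 (adjusted p = 0.00691, or 0.190 on untransformed percent). Sult5a1, with IL-1061 included, was 78.6% ± 15.4 ENSMUST00000000755 and 11.6% ± 3.94 ENSMUST00000137998 (adjusted p = 0.00776 for the latter). Both were at 0% in IL-1061, where the 3 fragments were all assigned to ENSMUST00000122819, a model marked for nonsense-mediated decay. With 3 fragments this share cannot be read.

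Fmo4, another flavin monooxygenase gene of the chromosome 1 cluster, differed among lines (edgeR, adjusted p = 0.0376) but stayed between 2.32 and 10.3 FPKM with no line called. Fmo9 was listed at 0 in every mouse.

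Of 17 other sulfotransferase genes, 15 were in the tables and 7 were expressed enough to test. All 7 differed among lines, beside 88.5% of all genes tested. Across lines, 28 of 147 combinations were called higher (19.0%) and 7 lower (4.76%), beside 11% and 7.15% over all genes. The widest ranges were in genes that were off in most mice and on in a few, for which a lower call was hardly possible. Sult2a1, a hydroxysteroid and bile acid sulfotransferase that is female-predominant in mouse liver, had a median of 0.03 FPKM. It reached 93.0 FPKM in IL-1452, 70.4 FPKM in IL-1141, 33.3 and 53.5 FPKM in IL-2146 and 48.9 and 29.3 FPKM in IL-4052. Sult2a2 reached 16.9 FPKM and Sult1e1 12.9 FPKM, the latter in replicate 3 of IL-785. Sult3a1, an amine sulfotransferase, was at 717 FPKM in 1 IL-3575 mouse and at 0.03 FPKM in its line mate.

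All 10 genes of sulfate supply and PAPS use differed among lines, beside 88.5% of all genes tested. Of 210 combinations, 18 were higher (8.57%) and 17 lower (8.10%), beside 11% and 7.15% over all genes. Impad1, which encodes a Golgi phosphatase of the PAPS by-product, had line means between 0.59 FPKM in IL-2146 and 10.5 FPKM in IL-557. Slc26a2, a sulfate transporter, ran from 0.50 to 1.72 FPKM and Cdo1, which starts the route from cysteine to sulfate, from 415 to 1147 FPKM. Slc13a1, the renal sulfate transporter, was at most 0.24 FPKM in any mouse. Of 12 sulfatases and their activators, which remove sulfate groups, 11 differed among lines. Of 252 combinations, 34 were higher (13.5%) and 26 lower (10.3%), beside the same shares over all genes. The widest ranges of line means among those that differed were Arsg (2.92 to 20.3 FPKM), Galns (0.62 to 3.92), Sulf2 (1.92 to 9.14) and Sgsh (0.57 to 2.24).

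The 6 male-predominant liver genes summed to between 854 and 10744 FPKM. Of these, 5 of 6 differed among lines, beside 88.5% of all genes tested, with Mup20, Elovl3, Cyp7b1 and Hsd3b5 the widest. All 6 female-predominant genes differed among lines, and their sum reached 1676 FPKM. Of 126 combinations, 24 were higher (19.0%) and 0 lower, beside 11% and 7.15% over all genes. The medians of these genes were between 0.02 and 0.64 FPKM. Lower calls were thus hardly possible, and the 0 is not a result. Over the 29 line means, the Spearman correlation of the male-predominant sum with the 8 genes lay between -0.29 (Fmo2) and 0.36 (Sult5a1). That of the female-predominant sum was 0.40 with Fmo1, 0.39 with Sult1d1 and 0.38 with Fmo2, and it lay between -0.01 and 0.30 for the other 5 genes. Every list of cell type markers had members that differed among lines. The sums ranged from 9.29 to 248 FPKM for Kupffer cells, 11.6 to 66.1 for sinusoidal endothelium, 16.0 to 135 for stellate cells, 6.50 to 208 for cholangiocytes, 198 to 2756 for erythroid cells and 0 to 19.3 for adipocytes. Their correlations with the 8 genes lay between -0.47 (erythroid with Sult1d1) and 0.43 (cholangiocyte with Sult1a1). Their part in the differences was not tested.

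The genes with the most similar line means were named for each member. They were Dcaf6 (0.79) and Wasl (0.79) for Fmo1, Becn1 (0.75) for Fmo2, and Tsen54 (0.75) and Tmub1 (0.73) for Fmo5. For the sulfotransferases they were Ppl (0.67) and Gm11826 (0.66) for Sult1a1, Gm10768 (0.75) and Pgrmc1 (0.75) for Sult1b1, Sult1e1 (0.70) and Kynu (0.67) for Sult1d1, and Kcnk1 (0.77) and Igfals (0.59) for Sult5a1. For Papss2 they were Gsta2 (0.72) and Glt1d1 (0.69). Each value is a Spearman correlation over 29 lines, chosen from the 2 highest among all expressed genes. For Sult1d1, the neighbouring Sult1e1 was among them.

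None of the 8 genes was associated with body weight or age across the 29 line means (limma on log2(FPKM + 1) with both covariates). The lowest unadjusted p for weight was 0.126, for Papss2 with -0.03 per g (SE 0.0176, adjusted p = 0.732). For age it was 0.347, also for Papss2, with 0.07 per week (SE 0.0771, adjusted p = 0.960). No gene of 11284 passed in limma for either covariate, and 832 had an unadjusted p under 0.05 for weight (7.37%) and 619 for age (5.49%).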

How the data were processed

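Liver polyA RNA of 55 male CC mice was sequenced by the authors in 50-base pairs after a stranded library kit. The authors mapped the reads to mm9 with Bowtie 2 and Ensembl 67 and quantified them with RSEM 1.2.18 at default settings, which do not use strand. The deposited expected counts are fragments estimated by RSEM for each gene or isoform, not normalized. For FPKM, the authors' RSEM run divided fragments by effective transcript length and by the mapped fragments of the library. Deposited TPM sum to 1 total in every library. Deposited IsoPct is in percent of a gene's transcripts. Mapping was to 1 reference genome for all lines.

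Expected counts, of which between 9.49% and 12.9% per mouse were not whole numbers, were rounded. Symbols matched 37205 of 37620 gene IDs. Counts of Fmo1 were not whole in all 55 mice, so it shares fragments with other genes. edgeR 4.0.16 (TMM, default expression filter, quasi-likelihood F test) was fitted to 47 mice, from the 21 lines that had line mates, for lines overall and for each line against the mean of the others. Benjamini-Hochberg adjustment ran over all genes, or over all genes and lines, with a threshold of 0.05. DESeq2 1.42.0 was an alternative. Isoform ratios and FPKM were binned by the maximum divided by 200 (at least 0.5). Genes needed a maximum of 2 FPKM and 12 levels. Normal scores of the ratios were tested with limma 3.58.1, as were line means of log2(FPKM + 1) for weight and age. Intraclass correlations used the one-way variance estimator. The edgeR fit, limma on log2 values, the weight slopes and the intraclass correlation were tested on simulated data. DESeq2 and the test of isoform ratios were not. Python 3.11.15 and R 4.3.3 were used.

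Depth was between 20.5 and 34.0 M fragments. Members and gene lists were chosen with earlier results of these data known, so no list is independent evidence. Named genes are the members, their isoforms with a mean of at least 5%, the 2 most similar genes each (1 gene is not reported here), and at most 4 tested genes a list by range. Xist, Ddx3y, single-line isoforms under 5% and the 3 lines low for Sult1b1 and Sult1d1 were chosen after their values were seen. No sequencing batch is named in the labels, so none was used. Annotation and genome for positions were GENCODE M1 on NCBIM37.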

Additional observations from a re-analysis of the deposited data

How the results depend on the processing

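All 8 genes differed among lines under DESeq2, RLE size factors, no expression filter, all 55 mice, limma on FPKM with a pseudocount of 1 or 0.1, and without IL-1052 and IL-2750. Leaving out 1 mouse gave 7 or 8. Of the 44 combinations of gene and line called, 39 held under every such alternative that gave them and 22 also when any 1 of 47 mice was left out, of which 10 were Sult5a1 and 5 Fmo1. These omissions kept the trend of the full fit's dispersion and treated a lone mouse as varying like other lines. A call in a line of 2 mice can thus be lost while its difference hardly changes, as for Sult1a1 in IL-1061. They gave 21 to 34 combinations higher and 19 to 24 lower. The highest numbers came without replicate 2 or 1 of IL-3438 (34 and 31). With limma on FPKM, 22165 and 21533 differences over all genes were higher (pseudocounts 1 and 0.1) in place of 35389, with 11282 genes tested in place of 15285, while lower calls were 22482 and 22385 in place of 22952. Calls lost there were Fmo2 in IL-2011 and IL-785, Sult1d1 in IL-519 and Sult5a1 in IL-785, and at a pseudocount of 1 also Sult5a1 in IL-2750. The cause was not tested. Over all genes, leaving out 1 mouse gave 13129 to 13599 genes that differed among lines, 32936 to 36894 differences higher, 20681 to 24242 lower and 1906 to 2385 isoform ratios. Testing every isoform gave 5899 of 21415 in place of 2183 of 6650, and 14 of 18 for the 8 genes in place of 6 of 7. On untransformed percent 5 of 7 passed, beside 1790 of 6650 over all genes. The requirement of 100 fragments in every mouse left 4 of the members, all called, beside 2004 of 4587 isoform ratios over all genes. Without filter, all 24790 genes gave 0 calls for weight and age. The median intraclass correlation of 0.628 ranged from 0.606 to 0.669 when 1 mouse was left out, and that of Sult5a1 was 0.843 on untransformed FPKM. No paired analysis was possible because the labels give no replicate numbers shared between lines. Sult5a1 in IL-1061, Sult1b1 in the low lines and Fmo2 in most mice rest on few fragments, so their isoform shares are imprecise.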
